A study of Mus musculus with 12 samples.

Results

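The regions described here are accessible regions of mouse embryonic stem (ES) cells that lie between genes, at a moderate distance from a transcription start site (TSS). A region of the merged ATAC-seq list was a member when its centre lay in no annotated gene and was more than 1 kb and at most 50 kb from the nearest TSS of any GENCODE M21 transcript. The rule took in 51652 of the 166526 regions on the 19 autosomes, from a list of 170548 regions in all. The other autosomal regions were 28631 centred within 1 kb of a TSS, 67171 in a gene and 1 to 50 kb from the nearest TSS, 12610 between genes and over 50 kb away, and 6462 in a gene and over 50 kb away.

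The list pools ATAC-seq peaks of 2 ES cell lines, for which the labels give 12 libraries in 6 groups of 2 replicates, and has no read number and no value for any single library. ZHBTc4 cells, in which a Tet-Off promoter drives Pou5f1 (encoding OCT4), were left untreated or given 1 µg/ml doxycycline (dox) for 24 hr. 2TS22C cells, in which the same kind of promoter drives Sox2, were left untreated or given 1 µg/ml dox for 26 hr or 40 hr, with an untreated group at each time. These groups were grown in serum with LIF and the inhibitors CHIR99021 and PD184352. Whether peaks of a published dataset of ZHBTc4 cells in serum with LIF alone, which the study also used, entered the list is not given in the sources used here. The list holds regions open in untreated ES cells together with regions open after the loss of OCT4 or SOX2, and the groups cannot be told apart in it. Depth, replicate error and the targeted genes' own levels could not be taken from it. Error is therefore given as a 95% Wilson interval, which covers counting error only, and as the range over the 19 autosomes. Regions are not replicates of a condition, and no test was run.

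ATAC-seq marks DNA that a transposase can reach. Between genes such DNA is mostly at enhancers, where transcription factors displace nucleosomes, and at sites of CTCF, the zinc finger protein that holds chromatin loops. An enhancer may lie on either side of the gene it acts on, and the nearest TSS need not belong to that gene. OCT4 and SOX2 bind many ES cell enhancers together, at a composite element of an octamer followed by a SOX site.

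The composite element was searched as ATTTGCAT, any base and ACAATG, on both strands of the central 200 bp of each region, with at most 2 mismatches. It was found in 332 of 51652 members (0.643%), of which 26 had 1 mismatch and 306 had 2. It was not particular to them. The share was 0.557% of regions in genes at the same distances and 0.801% of intergenic regions over 50 kb away. Within 1 kb of a TSS it was 0.231%. Among the genes of the lists described below, the member with a match whose sequence is shown here was the region of Utf1, a chromatin-bound factor of undifferentiated ES cells. That region, 673 bp wide (chr7:139945414-139946086, mm10), was centred 1961 bp from the Utf1 TSS and beyond the gene's 3' end. It is printed first, on the plus strand from chr7:139945621-139945755, with the match in capitals and 60 bases on either side. Counted from 1 at the 5' end of the match, it departs from the consensus at T2C and T4A.

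Utf1: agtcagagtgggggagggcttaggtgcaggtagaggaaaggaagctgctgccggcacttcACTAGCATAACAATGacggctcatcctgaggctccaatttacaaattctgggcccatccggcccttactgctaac

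Of the 26 members with a single mismatch, 8 had a protein-coding nearest gene, where 39.4% of all members did. The sequences of 7 of them follow, on the strand of the motif with 15 bases on either side and the match in capitals, because they are the closest matches near protein-coding genes. They were chosen after their matches were seen.

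Tcf7 (chr11:52286552-52286596, minus strand): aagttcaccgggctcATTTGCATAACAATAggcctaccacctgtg
Olfr48 (chr2:89855896-89855940, minus strand): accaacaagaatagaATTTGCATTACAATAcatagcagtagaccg
Erich3 (chr3:154777213-154777257, minus strand): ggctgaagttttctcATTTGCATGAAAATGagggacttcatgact
Mon1b (chr8:113598574-113598618, plus strand): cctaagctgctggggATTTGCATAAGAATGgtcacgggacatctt
Cdon (chr9:35402846-35402890, minus strand): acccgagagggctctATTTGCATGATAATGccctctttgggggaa
Zfp14 (chr7:30031578-30031622, minus strand): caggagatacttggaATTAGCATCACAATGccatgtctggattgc
Pum3 (chr19:27469831-27469875, plus strand): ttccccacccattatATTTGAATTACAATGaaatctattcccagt

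The mismatch lay at the last base of the SOX site for Tcf7, which encodes a Wnt pathway transcription factor, and for Olfr48, an olfactory receptor gene (G15A in both). It lay at the second base of the SOX site for Erich3 (C11A), Mon1b (C11G) and Cdon (C11T), a gene of a cell surface co-receptor, and in the octamer for Zfp14 (T4A) and Pum3 (C6A). Over the 332 members with a match, position 11 was the one most often mismatched, in 100 members (30.1%), and position 2 was the one least often, in 11 (3.31%). The Tcf7 region, 413 bp wide, was centred 3.51 kb upstream of the TSS, and the Mon1b region, 1012 bp wide, 37.0 kb upstream. Among the single-mismatch regions printed, the distance from the TSS ran from 3.51 kb (Tcf7) to 40.1 kb (Pum3).

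CTCF sites are shown for the same lists of genes, since this motif had the largest ratio of centre to flank shares of those searched. The motifs differ in length and in the mismatches allowed, so these ratios are not on like terms. Over all members, 2.86% of the central 200 bp windows held an exact match, and the share next to list genes was not compared with it. Several members next to list genes held one, and 4 of them are printed with the match in capitals and 12 bases on either side. These were chosen after their matches were seen, and matches next to T and Lama1 are among those not printed.

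Fgf4 (chr7:144846346-144846381, plus strand): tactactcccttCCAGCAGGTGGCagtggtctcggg
Lin28a (chr4:134036126-134036161, plus strand): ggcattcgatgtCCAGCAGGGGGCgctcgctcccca
Hand1 (chr11:57820147-57820182, plus strand): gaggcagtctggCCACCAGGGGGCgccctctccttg
Dlx3 (chr11:95117124-95117159, plus strand): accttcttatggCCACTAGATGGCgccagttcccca

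The Fgf4 match, near the gene of an autocrine growth factor of ES cells, lay in a 484 bp region centred 1015 bp upstream of the TSS, just inside the limit. The Lin28a region, near the gene of an RNA-binding protein, was 17.3 kb upstream. Hand1 and Dlx3, which encode transcription factors of the trophoblast, each had a second region with a match, at 6.70 kb and at 13.2 kb from the TSS.

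Over all genes, members lay about as densely upstream of TSSs as beyond the 3' ends of genes. Of the 51652 members, 29873 (57.8%, 57.4 to 58.3) were upstream of their nearest TSS and 21779 were on its other side, where a centre outside every gene is beyond the 3' end of the gene that owns the TSS. Assembled bases between genes at the same distances were split almost alike, with 58.0% of them upstream. Per Mb of such sequence there were 62.2 regions upstream and 62.6 beyond the 3' end, a ratio of 0.993 (0.976 to 1.01). Over single autosomes the ratio ran from 0.869 (chromosome 19) to 1.13 (chromosome 16), with a median of 0.977, and was above 1 on 6 of 19.

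The even split over all genes did not hold for protein-coding genes. Where the nearest TSS was protein-coding, density was 76.0 regions per Mb upstream and 88.7 beyond the 3' end, a ratio of 0.856 (0.832 to 0.881) that was above 1 on only 1 of 19 autosomes. The ratio was lower in both parts of this set. It was 0.808 (0.775 to 0.842) where the list had a region centred within 1 kb of that TSS. Where it had none, the ratio was 0.718 (0.686 to 0.752), and each was above 1 on 0 of 19 autosomes. Next to other genes the densities upstream and beyond were 54.2 and 54.9 per Mb, a ratio of 0.986 (0.965 to 1.01). Protein-coding genes owned 175.9 Mb of upstream sequence and 78.7 Mb beyond 3' ends, whereas the other genes owned 304.8 Mb and 269.3 Mb. The pooled ratio thus joined a lower density upstream of protein-coding genes with a larger share of upstream sequence that belonged to these genes, where density was higher on both sides. The annotation counted moved the pooled ratio to either side of 1, to 0.917 where the TSSs and gene bodies of protein-coding genes alone were used and to 1.06 with 1 TSS per gene.

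By distance, density differed little between the bands up to 20 kb and was lower beyond. Within the 10 to 20 kb band it already fell. Upstream it was 70.9 per Mb at 10 to 11 kb and 58.3 at 19 to 20 kb, and beyond the 3' end 72.8 and 59.3. Regions per Mb, both sides together, numbered 69.6 at 1 to 2 kb, 67.2 at 2 to 5 kb, 73.7 at 5 to 10 kb, 66.7 at 10 to 20 kb and 50.96 at 20 to 50 kb, and the 1 to 2 kb band was above the 20 to 50 kb band on 19 of 19 autosomes (ratio 1.37, 1.31 to 1.42, range over autosomes 1.12 to 1.65). With only the TSSs and gene bodies of protein-coding genes this ratio was 0.975 (0.921 to 1.03), and with 1 TSS per gene, the gene bodies unchanged, it was 1.30 (1.25 to 1.35). Within 10 kb of a TSS lay 42.1% of the members and 37.0% of the bases, and the median distance was 12312 bp. At the near limit of the rule the sides differed. Upstream, the last kb outside it (0 to 1 kb) held 157 intergenic regions per Mb and the first kb inside it 69.7, whereas beyond the 3' end the same bins held 71.7 and 69.4. At the far limit the values for both sides together were 38.4 inside (49 to 50 kb) and 44.7 outside (50 to 51 kb).

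**Figure D1:**
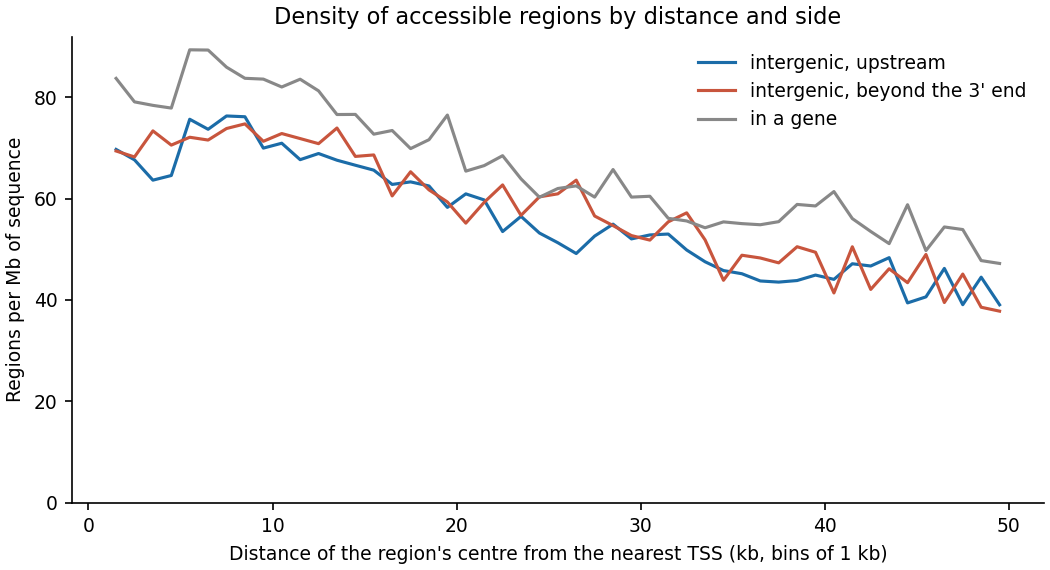
Regions per Mb of sequence (y axis) against the distance of the region's centre from the nearest TSS in kb (x axis, bins of 1 kb), for intergenic regions upstream, intergenic regions beyond the 3' end and regions in a gene. The upstream and beyond lines run together from about 70 regions per Mb to about 38, and the line of regions in a gene lies above both over most of the range.

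Regions in genes at the same distances were denser. They numbered 75.7 per Mb against 62.3 for the members (ratio 0.823, 0.814 to 0.833), and the ratio lay between 0.832 and 0.865 in each of the 5 distance bands. The widths of the 2 kinds were close, with a median of 356 bp for the members and 344 bp in genes.

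Density was not smooth at 5 kb from accessible protein-coding TSSs. A TSS counted as accessible when the list had a region centred within 1 kb of it, so this property comes from the same list as the members. Next to such protein-coding TSSs the members numbered 80.1 per Mb at 1 to 2 kb, 68.8 at 2 to 5 kb, 110.0 at 5 to 10 kb, 99.7 at 10 to 20 kb and 77.0 at 20 to 50 kb. The 2 to 5 kb band was below the 5 to 10 kb band on 19 of 19 autosomes (ratio 0.625, 0.589 to 0.663). In bins of 1 kb the upstream side held 71.3 per Mb at 4 to 5 kb and 108 per Mb at 5 to 6 kb. Beyond the 3' end the same bins held 99.6 and 131 per Mb, on 92 and 129 members. The 2 to 5 kb band was below the 5 to 10 kb band on 19 of 19 autosomes upstream (ratio 0.611, 0.573 to 0.652). Beyond the 3' end it was below on 14 of 19 (ratio 0.812, 0.701 to 0.941). Next to protein-coding TSSs without a region there was no such step, with 73.1 per Mb at 2 to 5 kb and 69.6 at 5 to 10 kb (ratio 1.05, 0.978 to 1.13).

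The same step stood around the members themselves, and it was larger around wide ones. Around the 2255 members of 1000 to 1500 bp there were 74.5 other autosomal regions per Mb at 4 to 5 kb from the centre and 124 at 5 to 6 kb (ratio 0.599, 0.523 to 0.686). Around the 16503 members of at most 250 bp the values were 96.9 and 108 (ratio 0.898, 0.856 to 0.941). Around the 7232 promoter regions of 1000 to 1500 bp within 1 kb of a TSS they were 56.8 and 118 (ratio 0.482, 0.443 to 0.523). MACS2, with which the authors called the peaks, measures a candidate peak against a background that by default includes reads up to 5 kb to either side of it, and the part of this setting in the step was not tested. Over 5 to 50 kb alone, the ratio of upstream to beyond was 0.995 (0.976 to 1.01) over all genes and 0.902 (0.874 to 0.931) next to protein-coding genes.

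**Figure D2:**
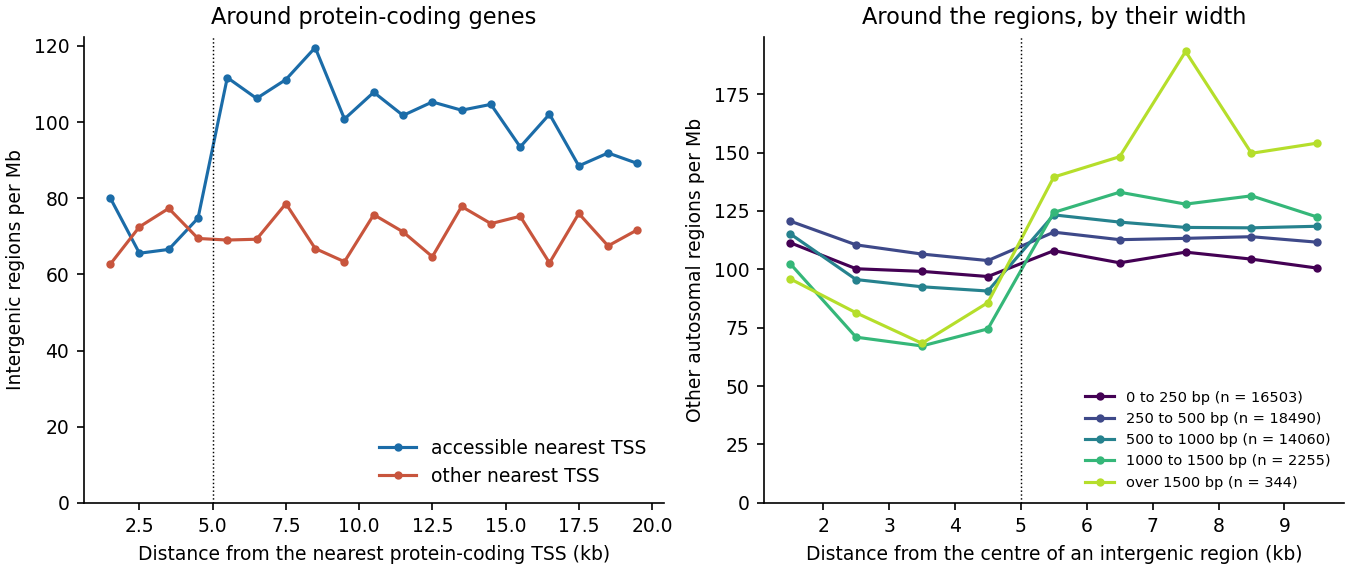
Left, intergenic regions per Mb (y axis) against the distance from the nearest protein-coding TSS in kb (x axis, bins of 1 kb), for accessible and other TSSs. Right, other autosomal regions per Mb (y axis) against the distance in kb from the centre of an intergenic region (x axis), with 1 line for each width class. The dotted line marks 5 kb, where the line of accessible TSSs and the lines of regions over 500 bp step up most, while the line of other TSSs does not.

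Width varied little with distance or side. The members were 116 to 4913 bp wide, with a lower quartile of 218 bp, a median of 356 bp and an upper quartile of 575 bp. The median was 356 bp upstream and 355 bp beyond the 3' end. By distance band the medians were 347.5, 347, 376, 360 and 346 bp, so that the 5 to 10 kb band had the largest median. Regions within 1 kb of a TSS were wider, with a median of 754 bp, and intergenic regions over 50 kb away were narrower, with 312 bp. More than 1 kb wide were 5.03% of the members and 34.6% of the regions within 1 kb of a TSS. By type of nearest gene the median ran from 340.5 bp (small RNA genes) to 366 bp (protein-coding and long non-coding RNA genes), leaving aside the 223 members next to immunoglobulin and T cell receptor segments (304 bp).

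The widest members lay mostly at the starts of chromosomes. The 5 widest were a 4913 bp region on chromosome 17 whose nearest gene was the pseudogene Gm49792, regions of 4654 and 4644 bp on chromosome 4 next to the miRNA gene Gm27878 and the pseudogene Vmn1r-ps2, a 4331 bp region on chromosome 11 next to Pisd-ps1, and a 3878 bp region on chromosome 7 next to Vmn1r-ps60. Of the 10 widest, 8 were centred in the first 500 kb of assembled sequence, next to the centromere of these chromosomes. The same 500 kb held 15 of the 56 members wider than 2 kb (26.8%) but 0.716% of all members. Soft-masked repeats made up 7.94% to 71.8% of the 10 widest.

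The type of the nearest gene separated the members more than the side did. Protein-coding genes were nearest for 20338 members (39.4%), which is 79.9 per Mb of the sequence they own. Long non-coding RNA genes were nearest for 10121 (19.6%, 65.7 per Mb), pseudogenes for 13996 (27.1%, 48.8 per Mb), small RNA genes for 4976 (9.63%, 53.1 per Mb) and TEC genes, loci that still await an experimental check, for 1998 (3.87%, 56.4 per Mb). Protein-coding genes owned 30.7% of the bases and pseudogenes 34.6%. Next to protein-coding genes density was 1.47 times that next to all others (1.44 to 1.49), at 79.9 against 54.5 per Mb. Within the long non-coding class, antisense genes (93.6 per Mb, 1014 members) and bidirectional promoter transcripts (90.8 per Mb, 114 members) stood above lincRNAs (62.5 per Mb, 8395 members).

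The order of the types changed with distance. At 1 to 2 kb the density next to long non-coding RNA genes was 85.6 per Mb and next to protein-coding genes 73.2, whereas at 5 to 10 kb the values were 82.2 and 91.7 and at 20 to 50 kb 53.4 and 70.9. Pseudogenes, most of which are processed copies of an mRNA without a promoter of their own, were lowest of the 5 large types in each band from 2 kb on.

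Accessible promoters had more members near them in every large gene type. Density was 86.2 per Mb where the nearest TSS was accessible and 52.3 where it was not, a ratio of 1.65 (1.62 to 1.68) that ran from 1.43 to 2.25 over the autosomes. The ratio was 1.30 (1.26 to 1.34) next to protein-coding genes, 1.59 (1.53 to 1.66) next to long non-coding RNA genes and 1.61 (1.54 to 1.68) next to pseudogenes. With an accessible TSS, protein-coding and long non-coding RNA genes were near each other, at 88.6 and 89.5 per Mb. Of the members with a protein-coding nearest gene, 63.6% were next to an accessible TSS, as were 57.3% of the bases. The exception by distance was the 2 to 5 kb band of protein-coding genes, with 68.8 per Mb next to accessible and 73.1 next to other TSSs (ratio 0.941, 0.875 to 1.01). Soft-masked sequence made up a mean of 25.5% of the central 200 bp of members next to accessible TSSs and 31.7% next to others, and its part in the difference was not tested.

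**Figure D3:**
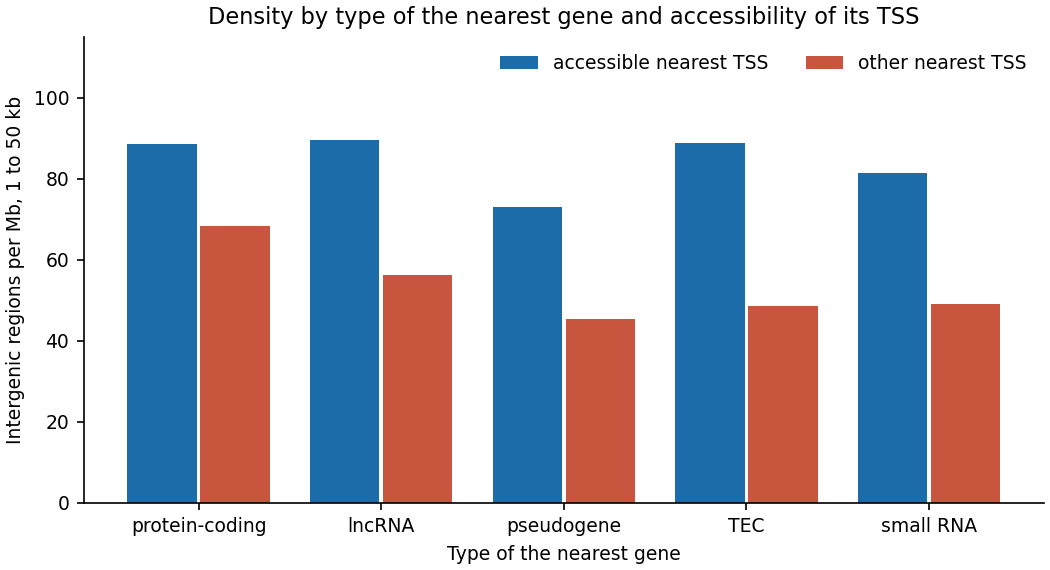
Intergenic regions per Mb at 1 to 50 kb (y axis, from 0) by type of the nearest gene (x axis), with 1 bar for accessible and 1 for other nearest TSSs. In each type the accessible bar is higher, between 72.9 and 89.5 per Mb against 45.3 to 68.2.

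Gene-free stretches between neighbouring genes differed little by the orientation of these genes. Of 30956 stretches with sequence 1 to 50 kb from a TSS, 17627 (56.9%) held at least 1 member. Between genes that face away from each other (head to head) density was 62.4 per Mb, in tandem 60.9, and between genes that end towards each other (tail to tail) 65.4. Density was lower in longer stretches, from 94.3 per Mb in those of 2 to 5 kb to 40.2 in those over 100 kb. The length of a stretch was not separated from the distance to the TSS, and density was also lower at 20 to 50 kb (50.96 per Mb). Neighbouring members of a stretch were a median of 5028.5 bp apart, and 379 stretches with more than 10 members held 9.78% of the members.

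The stretches with the most members were not next to pluripotency genes. They lay between 2610005L07Rik and Gm21182 on chromosome 8 (32 members in 132 kb), between Prl2c3, of the prolactin family, and Gm18262 on chromosome 13 (26 in 64.0 kb), and between BC002059 and the zinc finger gene Zfp960 on chromosome 17 (25 in 89.96 kb). Gene families of this kind have near-identical copies, and how reads that match several copies were assigned is not given in the sources used here. In the fourth, between the trophectoderm gene Tfap2c and Gm22773 on chromosome 2, 24 members were counted.

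Per gene the members were few. Of 16469 protein-coding genes with intergenic sequence at this distance, 8554 (51.9%) owned the nearest TSS of at least 1 member, with a median of 1 and an upper quartile of 2. The genes with the most were Gm17019 (23 members in 51.7 kb), Rybp (21 in 89.1 kb), which encodes a Polycomb subunit, and Prl2c3 (20 in 58.5 kb). Mgat5b, a glycosyltransferase gene, and the ribosomal protein copy Rpl36-ps4 had 16 each. Axin2, a Wnt target gene whose product restrains the pathway, Ddit4, whose product restrains mTORC1, and the glutamate transporter gene Slc1a3 had 15 each, and Gm10354, Zfp42 and Zfp960 had 14 each. Gm17019, Gm10354 and Rpl36-ps4 had no region within 1 kb of a TSS, whereas the others did.

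Genes of naive pluripotency and LIF signalling had the densest surroundings of the lists and families counted. Of 27 such genes with intergenic sequence at this distance, 26 (96.3%) had a member, where 51.9% of all protein-coding genes did, and the exception was Tbx3, with 0.370 kb of such sequence. Together they had 118 members in 0.608 Mb, which is 194 per Mb and 2.44 times (2.04 to 2.92) the density next to all other protein-coding genes. The median was 3 members per gene. Genes of the list owned a median of 16.5 kb of such sequence, against 9.91 kb for all protein-coding genes. The part of this in the share of 96.3% was not tested. Sox2 lies within the longer non-coding gene Sox2ot and had no intergenic sequence of its own. At 96.4% of the genes of the list a TSS was accessible, as at 74.98% of all protein-coding genes, and the part of this in the density was not tested. The ratio was 2.42 over 5 to 50 kb alone.

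Zfp42, which encodes the ES cell marker REX1, had the most, with 14 members in 72.6 kb, 8 of them upstream. They lay 12.4 to 45.7 kb from the TSS, and the widest was 1219 bp wide, centred 19.3 kb away beyond the 3' end. Gbx2, a homeobox gene that promotes self-renewal, had 11 members in 47.3 kb, 5 upstream and 6 beyond, from 1.97 to 28.9 kb away. Fbxo15 had 10 and Lifr, the LIF receptor gene, had 9, all of the latter upstream. For single genes, here and below, sides are counts only, without the sequence that the gene owns on each side. Dppa2, which encodes an epigenetic priming factor, had 8 members, 7 of them beyond its 3' end at 9.57 to 25.1 kb. Socs3 and Sall4 had 7 each, the one a feedback inhibitor of LIF signalling and the other a zinc finger partner of OCT4.

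Pou5f1 had 6 members in 16.96 kb, all upstream. The nearest, centred 1.46 kb from the TSS, was the widest at 1606 bp (chr17:35503751-35505356). Motifs of the Pou5f1 and Nanog regions were searched over the whole region, not the central 200 bp alone. These matches therefore cannot be set against the shares of centres given below. The nearest region held an exact SOX site and an AP-1 site, and no match to the composite element. The others were centred 3.35, 9.11, 15.4, 16.3 and 17.8 kb upstream and were 477, 996, 495, 438 and 252 bp wide. The third of these held an AP-2 and a SOX site and the last a KLF site, the one at 9.11 kb held a SOX site, and those at 3.35 and 16.3 kb held none of the motifs searched. Nanog had 1 member, of 724 bp (chr6:122719761-122720484), beyond the gene's 3' end at 12.6 kb and without a match. Klf4, Utf1, Tfcp2l1 and Dppa4 also had 1 each.

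Of the 19 trophectoderm genes with such sequence, 18 (94.7%) had a member, where 51.9% of all protein-coding genes did, with 71 members in all. Their density was 146 per Mb, or 1.83 times (1.45 to 2.31) that next to other protein-coding genes. These genes owned a median of 26.7 kb of such sequence, against 9.91 kb for all protein-coding genes. At 100% of the genes of the list a TSS was accessible, against 74.98%. The part of either in the share and the density was not tested. Tfap2c, an AP-2 factor of the trophectoderm, had 13 members, 5 upstream and 8 beyond the 3' end, from 2.38 to 44.0 kb away. Dlx3 had 8, Gata3 and Hand1 had 7 each, and Cdx2, a trophectoderm lineage factor, had 2, both beyond the 3' end. Eomes had 0 in 4.57 kb.

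For formative and gastrulation genes 12 of 16 (75%) had a member, where 51.9% of all protein-coding genes did. The list had 37 members at 129 per Mb and a ratio of 1.61 (1.17 to 2.23). Lef1, a Wnt pathway factor, had 7, all upstream, and Nodal and Lefty1, a ligand and its inhibitor, had 4 each, also all upstream. Of the primitive endoderm genes 10 of 15 (66.7%) had a member, with a ratio of 1.23 (0.857 to 1.77). This interval takes in 1 and also the 1.61 of the formative list. Sparc alone, a matrix glycoprotein gene, held 11 of the 29 members. The formative and primitive endoderm genes owned medians of 14.2 and 16.2 kb, against 9.91 kb for all protein-coding genes. A TSS was accessible at 94.4% and 88.9% of them, against 74.98%. The part of this in the shares and densities was not tested. Gata4 had 0 in 22.03 kb, and Gata6 had 1.

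Families at the other end were the chemosensory receptors. Olfactory receptor genes had 573 members at 43.4 per Mb (ratio 0.530, 0.488 to 0.576), and vomeronasal receptor genes had 198 at 33.3 per Mb (ratio 0.410, 0.357 to 0.472). A member was nearest to 33.3% of the former and 34.1% of the latter, below the 51.9% of all protein-coding genes. A TSS was accessible at 9.40% of the olfactory and 3.98% of the vomeronasal receptor genes, against 74.98% of all protein-coding genes. The part of this in the low densities was not tested. Ribosomal protein genes stood at 131 per Mb (ratio 1.64, 1.38 to 1.95), with 16 of 129 members from Rpl36-ps4. Hox genes had 19 members at 130.0 per Mb (ratio 1.63, 1.04 to 2.54). Tbx genes, a family of T-box transcription factors, had 9 members at 157 per Mb (ratio 1.97, 1.04 to 3.74), the highest density after that of the naive list. Klf genes had 20 members and a ratio of 0.992 (0.642 to 1.53), an interval too wide to tell a lower from a higher density.

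**Figure D4:**
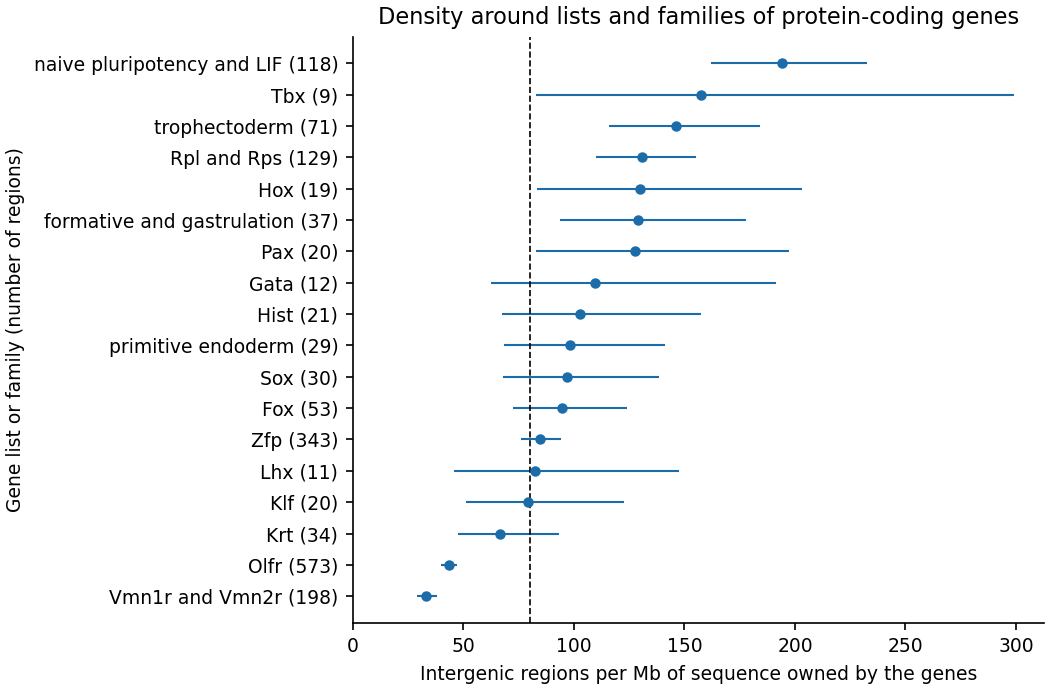
Intergenic regions per Mb of the sequence a list's genes own (x axis), for each list or family of protein-coding genes with at least 5 regions (y axis, number of regions in brackets). Points are densities, bars are 95% intervals over counts and the dashed line is all protein-coding genes (79.9 per Mb). Naive pluripotency and LIF genes stand highest at 194 per Mb and vomeronasal receptor genes lowest at 33.3.

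Loci of the study's browser tracks on chromosomes 11 and 3 are among the members. Their motifs too were searched over the whole region. A region of 1315 bp on chromosome 11 (chr11:6894395-6895709) lay 32.7 kb upstream of its nearest TSS, that of the processed pseudogene Gm11984, and held AP-2 and AP-1 matches. A region of 811 bp on chromosome 3 (chr3:137779920-137780730) lay 3.29 kb from the miRNA gene Mir6380, beyond its 3' end, and held an exact octamer.

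Motif matches marked the centres of the members. Exact CTCF matches were in 2.86% of the central 200 bp windows and in 0.143% of windows 1 kb to either side, a ratio of 19.99 (16.9 to 23.7). The KLF element (GGGNGTGGC) stood at 3.22% against 0.953% (ratio 3.38, 3.12 to 3.66). AP-2 (GCCNNNGGC) stood at 7.82% against 3.24% (ratio 2.41, 2.31 to 2.53). The composite OCT4::SOX2 element was in 0.643% of the centres and 0.267% of the flanks (ratio 2.41, 2.05 to 2.82). For ESRRB (TCAAGGTCA) the ratio was 2.23 (2.00 to 2.49), for TEAD (ACATTCCA) 1.92 (1.76 to 2.104), for the octamer alone (ATTTGCAT) 1.84 (1.70 to 1.98), for SOX (CCATTGT) 1.63 (1.55 to 1.72) and for AP-1 (TGANTCA) 1.31 (1.26 to 1.36). At least 1 of the 9 motifs was in 29.2% of the centres and 15.4% of the flanks. The octamer is part of the composite element, and 84 members held both. The base content of centre and flank differed too, with a median GC content of 48.5% against 44.0%, and its part in the ratios was not tested. The motifs also differed in length and in the mismatches allowed, and the part of this in the order of the ratios was not tested.

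**Figure D5:**
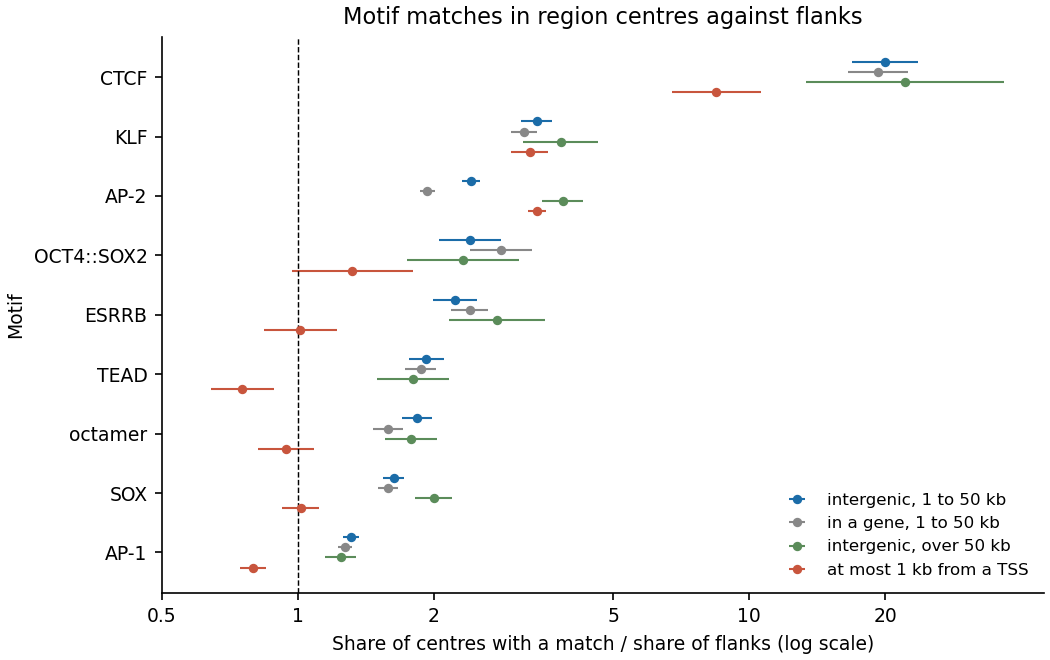
Share of region centres with a match divided by the share of flanks (x axis, log scale) for 9 motifs (y axis), in the intergenic regions 1 to 50 kb from a TSS and in 3 other sets of regions. Points are ratios, bars are 95% intervals and the dashed line marks 1. The intergenic points at 1 to 50 kb lie between 1.31 (AP-1) and 19.99 (CTCF), close to those of regions in genes, whereas promoter regions lie near or below 1 for 5 of the motifs.

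Upstream and beyond members shared the same motifs. CTCF matches were in 2.81% of the centres upstream and 2.94% beyond the 3' end, composite elements in 0.629% and 0.661%, and octamers in 2.43% and 2.42%. By distance, CTCF was most common at 2 to 5 kb (3.68%) and least at 20 to 50 kb (2.38%), whereas the composite element went from 0.365% at 1 to 2 kb, on 10 members, to 0.828% at 20 to 50 kb, on 131. Next to protein-coding genes 3.71% of the centres held a CTCF match, and next to others 2.32%. By width, CTCF was in 1.45% of the members up to the lower quartile of 218 bp, in 4.70% of those from the median to the upper quartile and in 2.25% of those over 575 bp, and SOX in 4.53% of the narrowest and 6.49% of the widest of these classes.

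Compared with the other sets, the members resembled regions in genes more than promoters. CTCF was in 2.601% of the centres in genes at the same distances, in 1.40% of intergenic centres over 50 kb away and in 1.34% of promoter centres. Octamers were in 2.42% of the members, 1.78% of regions in genes, 3.31% of intergenic regions over 50 kb away and 0.943% of promoter regions. Median GC content was 48.5% in the members, 49% in genes, 46.5% over 50 kb away and 58.5% within 1 kb of a TSS. The central 200 bp held a mean of 3.25 CpGs in the members and 11.3 within 1 kb of a TSS. Soft-masked repeats made up 29.2% of the members' centres and 34.9% of their flanks, and 6.23% of the members had a centre that was wholly soft-masked.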

How the data were processed

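The authors aligned ATAC-seq reads of ZHBTc4 and 2TS22C cells to mm10 (GRCm38) with STAR 2.6.1c, removed duplicates with Picard, called peaks with MACS2 2.1.1.20160309 and joined the peaks of all experiments with BEDTools. The file the authors deposited gives positions, a start and an end in bp per region, without a score, and 0 columns belong to a single sample, so that depth and replicate error are unknown and no groups were compared. The paper's methods remove peaks over 5 kb, Input and blacklisted peaks at a later step. Regions over 5 kb were still in the list, up to 58315 bp wide, though none of them was a member, and the other 2 kinds of peak were not looked for.

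Centres were placed against GENCODE M21 on GRCm38, a later release than the authors', and coordinates are counted from 1. Density is the number of regions over the assembled bases outside genes whose own nearest TSS is at the same distance, on the same side and of the same type. A gene owns the bases nearest to one of its TSSs, and a position shared by several genes went to the protein-coding one first. Intervals are 95% Wilson intervals, for ratios from the split of both counts. Motifs were searched without mismatches, apart from the composite element, and CTCF by a consensus of 12 letters. The window was the central 200 bp, or the whole region for the Pou5f1, Nanog and browser-track regions. Sequences are from the RefSeq copy of GRCm38, and those of 1 autosome are not shown.

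The members and lists were chosen with earlier results of these data known. Named are the genes of 4 lists (84 genes, all found by symbol), Pou5f1 and Nanog regions, 2 browser-track loci, the 10 protein-coding genes with the most members and 1 tied with the last of them, the 3 stretches with the most and the 5 widest members, with others stated as chosen after their values were seen. The step at 5 kb and the fourth stretch were also singled out after their values were seen. Alternatives changed the TSS set, the width filter, joining, repeats, the motif window and the mismatches. On simulated data all 5000 positions were classified as by direct search, a density ratio of 2 was recovered as 2.00, and 3002 of 3002 planted motifs were found. Python 3.11.15, NumPy 2.4.6, pandas 2.3.3 and matplotlib 3.10.9 were used.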

Additional observations from a re-analysis of the deposited data

How the results depend on the processing

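Of 38 alternatives to 11 values, 18 stayed inside the 95% interval of the value given (for the number of regions, within 1.5 times), 19 moved outside it in the same direction or where no direction was called, and 1 changed direction. With protein-coding TSSs and gene bodies only, the density ratio of 1 to 2 kb against 20 to 50 kb was 0.975, the share upstream 65.2% and the ratio of upstream to beyond 0.917. With 1 TSS per gene these were 1.30, 62.3% and 1.06, the share with a protein-coding nearest gene was 36.3% and the protein-coding ratio 1.41. Regions of at least 200 bp gave a median width of 435 bp, a protein-coding share of 40.0%, a protein-coding ratio of 1.503 and an accessible ratio of 1.69. Joining regions under 100 bp apart gave a median of 365 bp. Bases outside repeats gave a protein-coding ratio of 1.53, and TSSs that a region overlaps gave an accessible ratio of 1.60. Over 5 to 50 kb, an alternative added after seeing the data, the protein-coding ratio was 1.57 and the accessible ratio 1.75. In the central 400 bp the CTCF ratio was 14.1 and the OCT4::SOX2 ratio 1.98, and with at most 1 mismatch the latter was 3.06, on 26 centres. The causes were not tested. No paired analysis was possible because no result comes from a test and no column belongs to a sample, and for the same reason no replicate was left out in turn. Depth sets which weak regions entered the list, and it is unknown.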
